A study of Mus musculus with 6 samples.

Results

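The Sonic hedgehog pathway core is the set of 9 genes that carry the signal from the secreted ligand to the transcription factors it controls, taken by gene name from a table of 38561 genes. It holds the ligand Shh, the receptor Ptch1 and the transducer Smo, the co-receptors Cdon and Boc, the ligand-binding inhibitor Hhip, and the transcription factors Gli1, Gli2 and Gli3. All 9 names were found once, in all 6 libraries, and 9 of 9 passed the filter on low counts that left 16495 tested genes. The filter did not use the difference between genotypes. Counts of single members ran from 67 to 15766 per library.

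RNA was sequenced from mouse cells labelled as medial ganglionic eminence (MGE), a ventral forebrain territory where many interneurons are born, at embryonic stage E11.5 in the C57BL/6 strain. The 2 heterozygous libraries had the genotype Magoh lox/+; Nkx2.1-Cre; ROSAloxSTOPloxTdTomato, so that Cre made under Nkx2.1 control removes a Magoh allele and switches on the red reporter by which cells were sorted. The 4 control libraries carried the same Cre and reporter without the floxed allele. Both groups therefore share the Cre and the tdTomato transgene, and Magoh can be lost only in cells with a history of Nkx2.1 expression. Magoh encodes a core subunit of the complex that marks exon junctions on spliced RNA. Libraries held 37429290 to 49189360 counts. The sources used here do not say whether each came from its own embryo, so p-values measure the spread between these samples, which may in part be technical.

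Magoh itself stood at 57.1 and 48.6 CPM (counts per 1000000, scaled by TMM factors) in heterozygous libraries 1 and 2, against 68.1, 118, 63.6 and 74.3 CPM in controls 1 to 4, below every control in both. The MGE markers were present in every library, where Nkx2-1 had 349 and 466 CPM in heterozygous and 339 to 561 CPM in control libraries. Of the 8 MGE markers 7 were higher on average in heterozygous libraries, all but Nkx2-1 (-0.09), and the median log2 fold change was 0.65. Heterozygous library 1 and control 2 had 0 reads from 4 Y-linked genes and Xist at 111 and 94.2 CPM, which are the values of female samples, while 3453 to 4291 such reads were counted in each of the remaining 4. The same pair also had less signal from long transcripts. The median deviation of genes with at least 8000 exonic bases minus that of genes under 1000 was -0.32 log2 units in heterozygous library 1 and -0.75 in control 2, against 0.12 to 0.38 in the others. Each member is therefore also given within the libraries that are alike in Y-linked reads.

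Hedgehog signalling works by relief of repression. Without ligand, Ptch1 keeps Smo inactive and Gli3, and in part Gli2, are cut to repressors. When Shh binds Ptch1, helped by Cdon and Boc, Smo is freed, full-length Gli proteins activate transcription, and Gli1, Ptch1 and Hhip are themselves switched on, with Ptch1 and Hhip acting as negative feedback. In the ventral forebrain Shh is needed to set up Nkx2-1 expression and the MGE, and Gli3 opposes it.

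The upstream sequence of 3 members is shown here because Ptch1 and Hhip are feedback targets whose transcription reads out the pathway and Gli3 is its main repressor. Each is the 250 bases before the RefSeq start in GRCm38.p6, 5′ to 3′ on the gene's strand, with matches to the GC box (GGGCGG or, on the other strand, CCGCCC) in capitals. The Hhip stretch is chr8:80058009-80058258 on the minus strand, that of Ptch1 is chr13:63565736-63565985 on the minus strand, and that of Gli3 is chr13:15463473-15463722 on the plus strand.
Hhip: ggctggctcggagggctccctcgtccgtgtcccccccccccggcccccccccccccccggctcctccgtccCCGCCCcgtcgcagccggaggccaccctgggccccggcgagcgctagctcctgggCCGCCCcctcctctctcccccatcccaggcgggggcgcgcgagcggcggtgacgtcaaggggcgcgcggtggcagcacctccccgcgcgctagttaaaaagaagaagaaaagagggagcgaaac
Ptch1: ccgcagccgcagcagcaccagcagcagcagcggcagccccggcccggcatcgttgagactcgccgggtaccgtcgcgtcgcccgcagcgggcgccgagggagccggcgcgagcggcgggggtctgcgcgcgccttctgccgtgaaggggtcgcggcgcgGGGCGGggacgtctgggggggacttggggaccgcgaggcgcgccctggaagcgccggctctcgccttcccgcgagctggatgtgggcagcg
Gli3: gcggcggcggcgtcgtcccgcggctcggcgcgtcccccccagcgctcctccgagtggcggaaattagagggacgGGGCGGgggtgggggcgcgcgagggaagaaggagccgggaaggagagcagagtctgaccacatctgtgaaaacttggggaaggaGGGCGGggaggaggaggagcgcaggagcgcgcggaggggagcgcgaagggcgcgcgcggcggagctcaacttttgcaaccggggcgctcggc
These stretches are rich in G and C, at 76.0% for Hhip, 78.4% for Ptch1 and 72.8% for Gli3, against a median of 52.4% over 32851 RefSeq promoters of the same length. Hhip and Gli3 each held 2 GC boxes and Ptch1 held 1, and 32.7% of all promoters held at least 1. The 9-letter Gli consensus GACCACCCA, searched on both strands as that or TGGGTGGTC, was found in 0 of the 6 members with a listed promoter and in 0.225% of all promoters, so no match overlapped a GC box. The RefSeq start lies 7863 bases inside the GENCODE gene for Ptch1 and 30948 for Cdon, whose stretch had 42.8% G and C, and other starts of these genes were not searched.

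All 9 members had a lower mean in heterozygous cells than in controls, and none passed the test. The median of their log2 fold changes, heterozygous over control, was -0.55. Over all tested genes it was -0.03, and 53.9% lay below 0. Hhip (-0.88), Cdon (-0.74), Gli3 (-0.73) and Gli1 (-0.67) were farthest from 0, and Ptch1 (-0.18) and Smo (-0.25) were nearest. With edgeR's quasi-likelihood test and Benjamini-Hochberg adjustment, 0 of 9 members passed (smallest adjusted p = 0.85), as did 0.0% of all tested genes. At an unadjusted p under 0.05, 1 member was lower, Hhip, against 3.98% of all genes, and 0 were higher, against 1.75%. DESeq2 called 0 members and 0.484% of genes, and limma-voom called 0 members and 0.0% of genes. In bulk RNA, fewer expressing cells and less RNA per cell cannot be told apart.

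Both heterozygous libraries lay below all 4 controls for 2 members, Shh and Hhip, as did 8.14% of all tested genes, and above them for 0, against 6.17%. For the other 7 the groups overlapped, and in each of these 7 except Smo the lowest control was control 2. Taken one at a time, heterozygous library 1 lay below all controls for 3 members (18.6% of all genes) and library 2 for 5 (23.4%). With median-of-ratios scaling Shh overlapped as well and 1 member, Hhip, remained below all controls. Control 2 was the lowest of the controls for 7 of 9 members, all but Shh and Smo, where 36.8% of all genes had their lowest control value there. Against controls 1, 3 and 4 alone, both heterozygous libraries were below for 7 of 9 members, against 19.4% of genes.

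**Figure D1:**
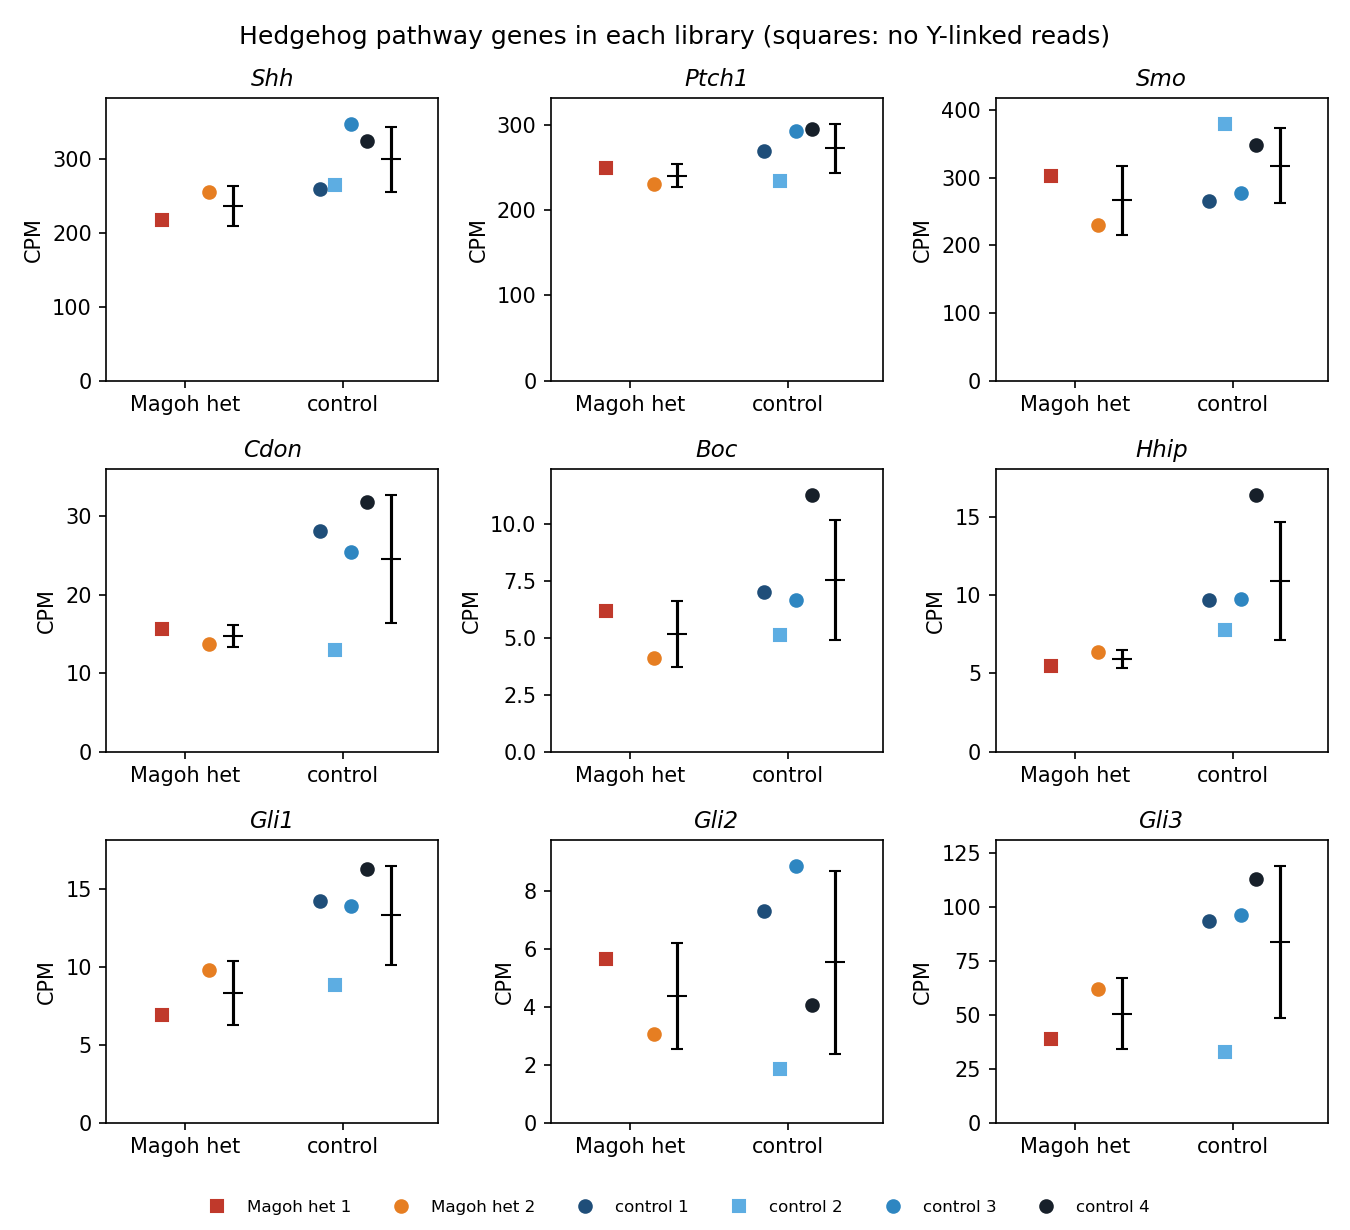
Level of each of the 9 members in CPM (vertical axis, linear from 0) in the 2 heterozygous libraries and the 4 controls, with the group mean and SD as a bar to the right of the points. Squares mark the pair of libraries without Y-linked reads. Shh and Hhip are the members whose heterozygous points lie below every control point, and control 2 is low for Gli1, Gli2, Gli3, Cdon and Hhip.

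Levels between genes were compared per kilobase of exon sequence. In both groups Shh stood highest, at 83.2 ± 9.81 CPM per kb in heterozygous cells (SD, n = 2) and 105 ± 15.4 in controls (SD, n = 4). Smo followed at 47.4 ± 9.16 and 56.5 ± 9.80 CPM per kb in heterozygous and control cells, and Ptch1 at 17.0 ± 0.938 in heterozygous and 19.2 ± 2.04 in control cells. Control ranges of these 3 did not overlap each other or that of Gli3, which came next at 5.27 ± 1.71 CPM per kb in heterozygous cells and 8.72 ± 3.66 in controls. Below it came Cdon, Gli1, Boc, Hhip and Gli2, with control means of 3.19, 2.66, 1.69, 1.20 and 0.805 CPM per kb, and each neighbouring pair from Gli3 downward overlapped over the controls. Dividing instead by the longest coding transcript kept the order of the first 4 control means and put Cdon and Gli1 level, at 3.28 CPM per kb each. Smo then stood at 84.1 ± 14.6 CPM per kb in controls (SD, n = 4), against 105 ± 15.4 for Shh. With this length the control ranges of Shh and Smo overlapped, so their separation depends on the length used. Ptch1 moved most as a ratio, to 35.3 ± 3.74 CPM per kb in controls (SD, n = 4), since its annotated exons together are 14185 bases and its longest coding transcript 7725.

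The spread among controls also differed between members. The coefficient of variation over the 4 controls was 10.6% for Ptch1, 14.7% for Shh and 17.3% for Smo, below the median of 24.0% over all tested genes. It was 57.1% for Gli2, 42.0% for Gli3, 35.3% for Boc, 34.7% for Hhip and 33.1% for Cdon. Gli1, at 23.9%, was close to that median.

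Shh (ENSMUSG00000002633; chromosome 5, 28456815 to 28467256, minus strand, GRCm38) encodes the secreted ligand. It stood at 217 and 256 CPM in heterozygous libraries 1 and 2, against 260.0, 265, 348 and 325 CPM in controls 1 to 4. Both heterozygous values were below every control, but library 2 was close to control 1. The means were 237 ± 27.9 CPM in heterozygous cells (SD, n = 2) and 299.6 ± 43.9 CPM in controls (SD, n = 4), and the log2 fold change was -0.34 ± 0.19 (SE, edgeR; adjusted p = 0.907). Without heterozygous library 1 it was -0.21. Within like libraries it was lower by a similar amount in both contrasts, at -0.29 log2 units for heterozygous 1 minus control 2 and -0.27 for heterozygous 2 minus the mean of controls 1, 3 and 4. Exons of 2 other annotated genes overlap 446 and 361 bases of Shh exons, and these genes had at most 274 counts in any library.

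Ptch1 (ENSMUSG00000021466; chromosome 13, 63508328 to 63573598, minus strand) encodes the receptor and is itself induced by the pathway. Its level was 250.2 and 231 CPM in the heterozygous libraries, against 269, 234, 293 and 296 CPM in the controls. Heterozygous library 1 lay above control 2, so the groups overlapped. The log2 fold change was -0.18 ± 0.17 (SE, edgeR; adjusted p = 0.999).

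Smo (ENSMUSG00000001761; chromosome 6, 29735503 to 29761365, plus strand), the membrane protein that Ptch1 holds inactive, stood at 303 and 230.1 CPM in heterozygous cells, against 265, 380, 278 and 348 CPM in controls. Library 1 lay inside the control range and library 2 below it. Its log2 fold change was -0.25 ± 0.22 (SE, edgeR; adjusted p = 0.984), and the differences within like libraries were -0.33 (heterozygous 1) and -0.36 (heterozygous 2). The fold change was -0.45 without heterozygous library 1, -0.07 without heterozygous library 2 and -0.14 without control 2.

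The co-receptors Cdon and Boc are immunoglobulin-family surface proteins that bind Shh and present it to Ptch1. Cdon (ENSMUSG00000038119; chromosome 9, 35421128 to 35507652, plus strand) stood at 15.7 and 13.7 CPM in heterozygous libraries, against 28.1, 13.0, 25.5 and 31.8 CPM in controls. Both heterozygous values were close to control 2 and under the other 3 controls. The log2 fold change was -0.74 ± 0.34 (SE, edgeR; adjusted p = 0.85). Boc (ENSMUSG00000022687; chromosome 16, 44485049 to 44558897, minus strand) stood at 6.20 and 4.13 CPM in heterozygous libraries, against 7.02, 5.15, 6.65 and 11.3 CPM in controls. Control 4 was the highest library for both genes. For Boc the log2 fold change was -0.55 ± 0.36 (SE, edgeR; adjusted p = 0.946). It was -0.86 without heterozygous library 1, -0.29 without heterozygous library 2 and -0.28 without control 4.

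Hhip (ENSMUSG00000064325; chromosome 8, 79965851 to 80058006, minus strand), the feedback inhibitor that binds and sequesters the ligand, showed the largest difference of the members. Its level was 5.49 and 6.33 CPM in heterozygous libraries 1 and 2, from 233 and 311 counts. Controls 1 to 4 had 9.70, 7.76, 9.72 and 16.4 CPM, from 362, 279, 440 and 733 counts. The groups did not overlap, and control 4 stood apart on the high side. The log2 fold change was -0.88 ± 0.33 (SE, edgeR; unadjusted p = 0.0291, adjusted p = 0.85). DESeq2 gave -0.87 (unadjusted p = 0.0164, adjusted p = 0.48). Its fold change lay between -1.0 and -0.60 on the log2 scale under 15 alternatives, with adjusted p between 0.226 and 1.0, and it was -0.61 without control 4.

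The Gli factors share zinc fingers that read the same DNA motif but differ in role. Gli1 (ENSMUSG00000025407; chromosome 10, 127329882 to 127341974, minus strand) acts only as an activator and is a direct target, and its level is widely used as a readout of the pathway. It stood at 6.88 and 9.80 CPM in heterozygous libraries, against 14.2, 8.82, 13.9 and 16.3 CPM in controls. Library 1 was below every control, while library 2 was above control 2 and below the other 3. The log2 fold change was -0.67 ± 0.30 (SE, edgeR; adjusted p = 0.85), and it ran from -0.96 to -0.43 over 15 alternatives, the smaller of these without heterozygous library 1. Its exons share 62 bases with those of Arhgap9, which had at most 26 counts.

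Gli2 (ENSMUSG00000048402; chromosome 1, 118834132 to 119053619, minus strand), the main activator of the first response, was the lowest member per length. Its CPM were 5.66 and 3.07 in heterozygous libraries, against 7.32, 1.86, 8.86 and 4.07 in controls. The heterozygous values lay within the control range, and the log2 fold change was -0.34 ± 0.59 (SE, edgeR; adjusted p = 0.999). Its sign turned in 2 of 15 alternatives, to 0.03 without heterozygous library 2 and to 0.02 with Y-linked reads as a covariate. It was -0.84 without heterozygous library 1, -0.18 without control 1, -0.62 without control 2 and -0.02 without control 3.

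Gli3 (ENSMUSG00000021318; chromosome 13, 15463235 to 15730026, plus strand), the main source of repressor, was the most abundant Gli transcript. It stood at 38.9 and 62.1 CPM in heterozygous libraries, against 93.2, 32.6, 96.1 and 113 CPM in controls. Both heterozygous values were under controls 1, 3 and 4 and above control 2. Exons of Gm6556, with at most 164 counts, overlap 188 bases of its own. The log2 fold change was -0.73 ± 0.46 (SE, edgeR; adjusted p = 0.928). It was -0.42 without heterozygous library 1, -1.11 without heterozygous library 2 and -0.31 with Y-linked reads as a covariate.

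Within the pair without Y-linked reads, heterozygous library 1 was lower than control 2 for 4 of 9 members, Shh, Smo, Hhip and Gli1, where 50.4% of all genes were lower. Among the remaining libraries, heterozygous library 2 was lower than each of controls 1, 3 and 4 for 9 of 9 members, against 35.2% of all genes. The differences in log2 CPM were -0.50 and -0.87 for Hhip and -0.36 and -0.59 for Gli1 in the first and second contrast. For Cdon they were 0.27 and -1.05, for Boc 0.27 and -0.96, for Gli3 0.26 and -0.69, for Ptch1 0.10 and -0.30, and for Gli2 1.58 and -1.05. Hhip, Gli1, Shh and Smo were thus lower in both contrasts, and the other 5 were lower in the second and higher in the first. Neither contrast has replicates in both groups. Control 2 also had the lowest signal from long transcripts. With the length and GC trends of each library removed, the median of the members was -0.44, and Hhip (-0.72) and Gli1 (-0.57) were the 2 members below all controls. The share of all genes below all controls was not taken with the trends removed, and was 8.14% in the main fit. The count of 2 therefore has no background of its own.

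**Figure D2:**
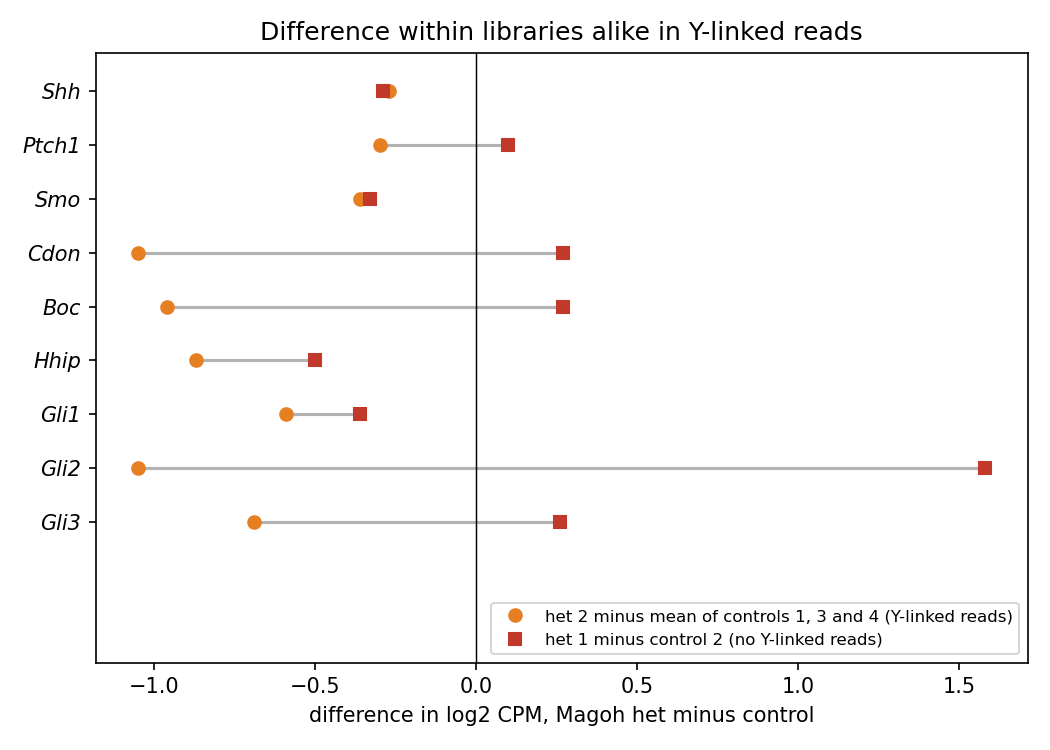
Difference in log2 CPM, heterozygous minus control (horizontal axis), for each member, within the pair of libraries without Y-linked reads (squares) and within the 4 libraries with them (circles). All 9 circles lie left of 0, and the squares of Ptch1, Cdon, Boc, Gli2 and Gli3 lie right of it.

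A ratio of members within a library does not depend on scaling, but it was not corrected for the length trend of each library. The paired genes differ in exonic bases, with 4995 for Gli1 and 9589 for Gli3, and 14185 for Ptch1 and 2847 for Shh. The part of length in these ratios was not tested. The log2 ratio of Gli1 to Gli3, the target against the repressor gene, was -2.50 and -2.66 in heterozygous libraries and -2.72, -1.88, -2.79 and -2.79 in controls. The difference of means was -0.04 (exact two-sided permutation test, p = 1.0, adjusted over 2 ratios 1.0), and control 2 again stood apart. Without control 2 the difference was 0.18 with both heterozygous values above the remaining controls (exact permutation test, p = 0.1, the smallest that 2 against 3 libraries allow). The log2 ratio of Ptch1 to Shh, receptor against ligand, was 0.21 and -0.15 in heterozygous libraries and 0.05, -0.18, -0.25 and -0.13 in controls. Its difference was 0.16 (exact permutation test, p = 0.4, adjusted 0.8). With 2 against 4 libraries these tests cannot give a p below 0.0667.

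Outside the core, 32 of 33 listed pathway genes were tested, and 20 were lower in heterozygous cells, with a median log2 fold change of -0.08. Of the 32, 0 passed edgeR, 3 had an unadjusted p under 0.05 and DESeq2 called 1, Lrp2. Both heterozygous libraries lay below all controls for 3 of them, Lrp2, Spop and Mycn, and above for 3, Dhh, Prkacb and Nkx2-2, where 8.14% of all tested genes lay below and 6.17% above. For the unadjusted p the shares of all genes were 3.98% lower and 1.75% higher, and for DESeq2 0.484%. Lrp2, or megalin, is a large endocytic receptor that binds Shh at the forebrain surface. It stood at 68.9 CPM in each heterozygous library, against 164, 109.6, 289 and 166 CPM in controls, so that the groups did not overlap. The log2 fold change was -1.40 ± 0.37 (SE, edgeR; adjusted p = 0.793; DESeq2, adjusted p = 0.0359), with -1.57 and -1.09 as the limits over 15 alternatives. Within like libraries the differences of Lrp2 were -0.67 and -1.53 log2 units. Gas1, a membrane-anchored co-receptor for Shh, had a log2 fold change of -0.04, with the heterozygous libraries on opposite sides of the controls. Library 1 stood above them at 19.8 CPM and library 2 below them at 5.37 CPM, against 9.68 to 18.2 CPM in controls. Its differences within like libraries were 0.51 and -1.17 log2 units.

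Genes of ligand release were below 0 for 4 of 6 tested members, with a median of -0.33. Scube1, a secreted protein of the family that helps to release lipid-modified Shh, stood at 59.8 and 88.3 CPM in heterozygous libraries and at 206, 67.9, 308 and 401 CPM in controls, a log2 fold change of -1.73 ± 0.63 (SE, edgeR; adjusted p = 0.841). Control 2 lay between the heterozygous values. Its relative Scube3 stood at 79.7 and 77.2 CPM in heterozygous libraries and at 138, 56.6, 145 and 176 CPM in controls. Control 2 was below both heterozygous libraries, and the differences within like libraries were 0.49 and -0.98 log2 units. Hhat, which adds palmitate to Shh, had a log2 fold change of -0.35. The ligand Dhh was at 0.896 and 0.448 CPM in heterozygous libraries and at most 0.223 CPM in controls, 2 of which had 0 counts, and Ihh had 0 counts in the heterozygous libraries and at most 7 in a control.

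Inhibitors inside the cell lay near 0, with 6 of 10 below it and a median of -0.03. Among them the ubiquitin ligase adaptor Spop had a log2 fold change of -0.20, the ciliary receptor Gpr161 0.33, and the kinases Prkacb and Gsk3b 0.19 and 0.17. Of 5 activators 2 were below 0, with a median of 0.14. These were the ciliary partners of Smo, Evc2 (-0.57) and Evc (-0.49), while the kinases Stk36 (0.24) and Grk2 (0.16) lay above it. For Evc and Evc2 control 2 was below both heterozygous libraries. Their differences within like libraries were 0.80 and -0.64 log2 units for Evc, and 0.02 and -0.65 for Evc2.

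Of 8 ventral and growth targets 5 were below 0, with a median of -0.10. Nkx2-2, a homeobox gene induced by high Shh, had 31.3 and 23.5 CPM in heterozygous libraries and 16.6, 15.6, 17.7 and 13.0 CPM in controls. The groups did not overlap, and the log2 fold change was 0.80 ± 0.20 (SE, edgeR; adjusted p = 0.793). The floor plate factor Foxa2 stood at 2.90 and 1.87 CPM in heterozygous libraries, against 2.63, 2.25, 5.90 and 12.4 CPM in controls. Nkx6-2 (0.58) and Mycn (-0.22) had smaller differences, and Nkx2-1 itself had one of -0.09.

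**Figure D3:**
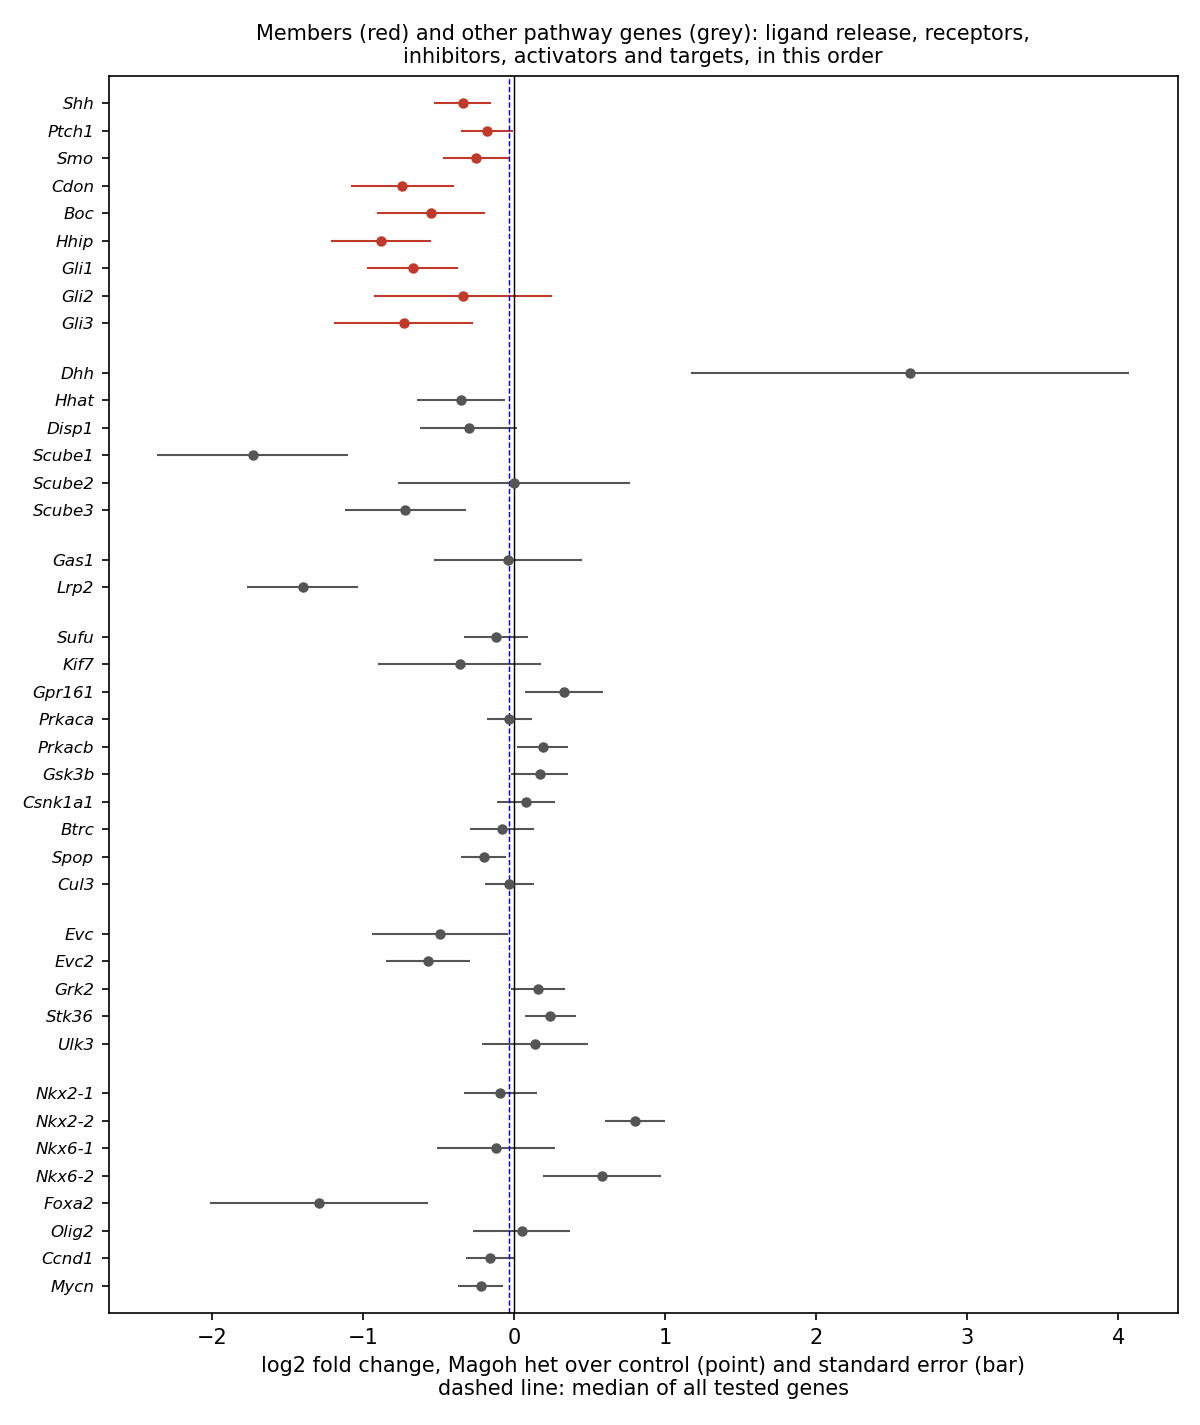
Log2 fold change, heterozygous over control (horizontal axis), with its standard error, for the 9 members in red and other tested pathway genes in grey, grouped by role. All red points lie left of 0, as do Lrp2 (-1.40) and Scube1 (-1.73), while the inhibitors and activators inside the cell scatter about the median of all genes at -0.03.

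Marker lists of the cells that the sort could hold were scored in each library. The score of the 9 members, their mean log2 CPM minus that over controls, was -0.44 and -0.50 in heterozygous libraries and 0.08, -0.55, 0.16 and 0.31 in controls. Floor plate markers, of cells that make Shh at the midline, were below 0 for 8 of 9 genes, with scores of -0.31 and -1.18 in heterozygous libraries and -0.17, -0.65, 0.04 and 0.78 in controls. Their summed level was 641 and 670.2 CPM in heterozygous libraries and 505 to 999.9 CPM in controls, and none was at 0. Control 4 had the highest member score, the highest floor plate score and the lowest MGE score, -0.72. The MGE scores were 0.03 and 1.0 in heterozygous libraries and -0.72 to 0.34 in controls, with Lhx6 at 70.8 and 243 CPM in heterozygous libraries and 51.3 to 110.5 CPM in controls. Heterozygous library 2 thus had the highest MGE score and a member score of -0.50. Their part in the differences between genotypes was not tested.

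Neuronal markers were above 0 for 10 of 10 genes, with scores of 0.42 and 0.74 in heterozygous libraries and -0.23 to 0.28 in controls, and summed levels of 3459 and 4126 CPM in heterozygous libraries against 2009 to 2935 CPM in controls. Both heterozygous libraries lay above all controls for 6 of these 10 genes, against 6.17% of all tested genes. The neuronal tubulin Tubb3, 1 of the 6, stood at 1884 and 2008 CPM in heterozygous libraries and 994 to 1555 CPM in controls. Of 10 radial glia and progenitor markers 7 were below 0, with scores of -0.19 and -0.21 in heterozygous libraries and -0.14 to 0.18 in controls, and summed levels of 3643 and 4326 CPM in heterozygous libraries against 3597 to 5407 CPM in controls. Both heterozygous libraries lay below all controls for 2 of these 10 genes, against 8.14% of all tested genes, and the rest overlapped. The Notch target Hes1, 1 of the 2, was at 38.2 and 34.3 CPM in heterozygous libraries, against 50.7 to 82.0 CPM in controls. The progenitor factor Sox2 overlapped, with a log2 fold change of -0.11. Hypothalamic and preoptic markers were present throughout, although the labels name the MGE. They summed to 568 and 509 CPM in heterozygous libraries and 472 to 762 CPM in controls. Their scores were 0.35 and 0.21 in heterozygous libraries and -0.26 to 0.16 in controls. Of these 10 genes 5 were below 0, and the median of the 10 was 0.39. An unadjusted p under 0.05 (edgeR) was found for 6, with Rax lower and the other 5 higher. The shares of all tested genes at this threshold were 3.98% lower and 1.75% higher. The 5 above 0, Sim1, Otp, Nkx2-2, Hmx2 and Hmx3, lay above all controls in both heterozygous libraries, against 6.17% of all genes, and are named here because of it. DESeq2 called Sim1 (adjusted p = 0.0448), and edgeR did not (adjusted p = 0.793). Sim1, of the paraventricular lineage, stood at 43.9 and 34.5 CPM in heterozygous libraries and 17.7 to 26.5 CPM in controls. Rax, of the basal hypothalamus, stood at 46.7 and 47.6 CPM in heterozygous libraries and 61.1 to 133 CPM in controls. Whether these shifts take part in the lower levels of the members was not tested.

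**Figure D4:**
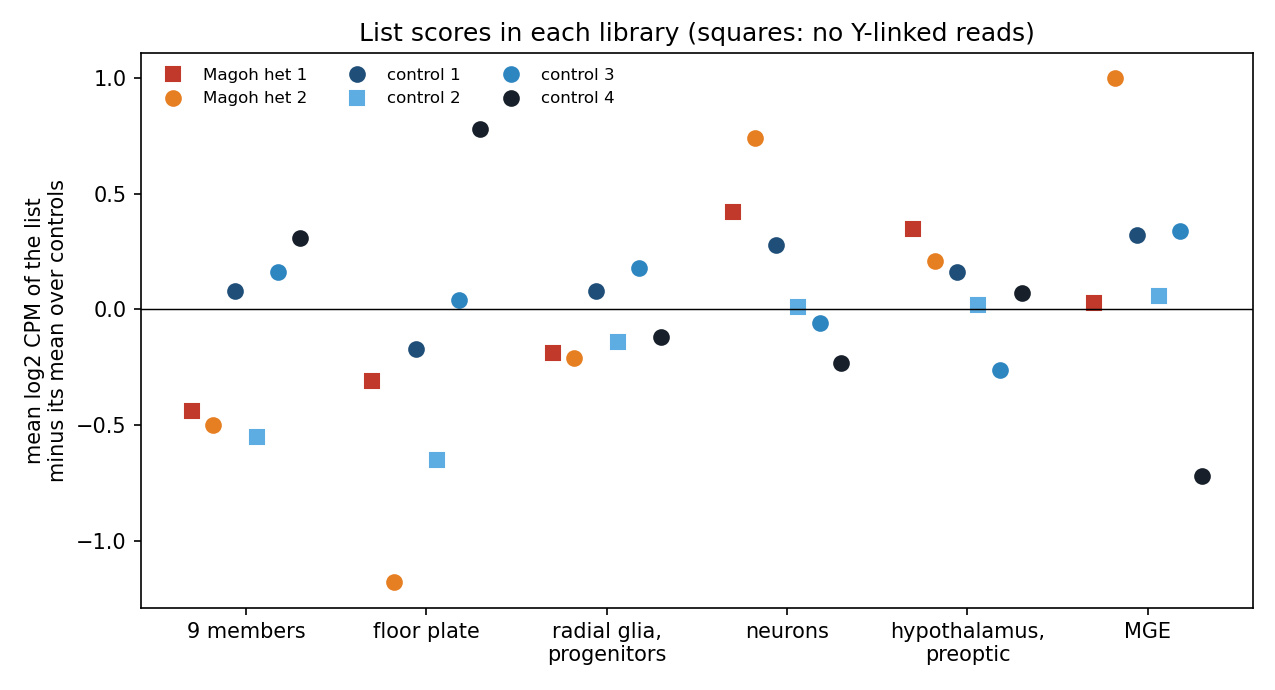
Score of each list in each library (vertical axis, mean log2 CPM of the list minus its mean over controls). Both heterozygous libraries lie below 0 for the 9 members. They lie above all controls for neurons and for the hypothalamic and preoptic list. Control 4 is highest for the members and the floor plate and lowest for the MGE list.

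Microglial markers summed to 4.78 and 0.0 CPM in heterozygous libraries and 1.45 to 49.5 CPM in controls, the highest in control 4, with all 4 genes at 0 in heterozygous library 2, where 0 counts allow up to 0.061 CPM each. Surface and oral ectoderm markers summed to 85.5 and 36.7 CPM in heterozygous libraries and 48.6 to 74.2 CPM in controls. Krt14 was at 0 in every library. Blood and endothelial markers summed to 201 and 7.97 CPM in heterozygous libraries and 28.7 to 90.9 CPM in controls. Mesenchymal markers summed to 149.9 and 60.3 CPM in heterozygous libraries and 95.6 to 159 CPM in controls. Dorsal telencephalic markers summed to 274 and 288 CPM in heterozygous libraries and 238 to 362 CPM in controls. Of the tested genes in these lists, 3 of 3 microglial, 4 of 9 ectodermal, 4 of 7 blood or endothelial, 5 of 6 mesenchymal and 2 of 6 dorsal telencephalic ones were below 0.

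The genes most like 4 of the members across the 6 libraries were found by the root mean square difference of centred log2 CPM among 10139 genes. For Gli1 these were Fgfr1 (0.0601 log2 units), Col4a5 (0.065), Capn6 (0.0849), Kirrel (0.103) and Hk2 (0.104), where the median gene differed by 0.487. For Hhip they included Ly75 (0.0819), Zfp503 (0.102), Atoh8 (0.11) and the floor plate marker Spon1 (0.133), with a median gene at 0.562. Shh was nearest to Ttc13 (0.0622), Rps6kb1, Plin3, Mre11a and Etaa1, and Ptch1 to Ankrd28 (0.0342), Tacc3, Terf1, Ctc1 and Dnajc3, with median genes at 0.336 and 0.29. Within the core the gene nearest to Gli1 was Hhip, at 0.222, and the gene nearest to Shh was Ptch1, at 0.155. A gene equal in all libraries would differ by 0.437 from Gli1 and by 0.228 from Shh. These likenesses describe 6 libraries that also differ in depth and in long-transcript signal.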

How the data were processed

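RNA-seq was made from 6 samples of sorted cells. The submitters' processing notes name HTSeq, STAR and Trim Galore with build mm10. Versions, annotation and strand setting were not given in the sources used here. Reads of overlapping genes on opposite strands therefore cannot be told apart. The authors deposited raw read counts per Ensembl gene, which were used, with 0 columns of no sample and 0 rows naming no gene, and a normalized table, which was not.

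Counts were tested over all 16495 genes kept by filterByExpr with edgeR 4.0.16 (TMM, robust glmQLFit, glmQLFTest, two-sided, Benjamini-Hochberg, threshold 0.05; R 4.3.3), heterozygous over control, on all 6 libraries. Standard errors are the fold change over the square root of F. Log2 CPM used a prior count of 2. A count of 0 allows up to 3 counts, counting error only. GENCODE M21 (GRCm38) gave coordinates, exon length and GC for 98.6% of tested genes, and RefSeq (GRCm38.p6) gave promoters for 6 of 9 members.

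All members are named, with up to 4 genes of each pathway list by smallest p, up to 2 of each marker list, and the 5 nearest genes by profile for 4 members. The members and lists were chosen with earlier results of these data known. Alternatives were DESeq2 1.42.0, limma-voom 3.58.1, RLE scaling, no filter, no robust fit, the sample code number as a block, Y-linked reads as a covariate, length and GC trends (loess, span 0.5), and leaving out libraries. The test of genotype by Y-linked reads was added after seeing the data. The code was tested on simulated data. Some genes that these rules would name are not reported here.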

Additional observations from a re-analysis of the deposited data

Results flagged for a closer look

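A set of 5 members, Ptch1, Cdon, Boc, Gli2 and Gli3, differed from controls on opposite sides in the libraries without and with Y-linked reads. Heterozygous library 1 was above control 2 by 0.10 log2 units for Ptch1, 0.27 for Cdon, 0.27 for Boc, 1.58 for Gli2 and 0.26 for Gli3, while heterozygous library 2 was below each of controls 1, 3 and 4. The same kind of opposition held for 32.0% of all tested genes. The difference was tested as an interaction of genotype with Y-linked reads (edgeR), a fit added after seeing the data whose spread comes from 3 controls. No member passed (smallest adjusted p = 0.203, for Cdon, with an interaction of 1.32 log2 units), and 0 of 17717 genes did, with 2465 at an unadjusted p under 0.05. Cdon, Gli2 and Gli3 were the 3 members among these, with interactions of 1.32, 2.73 and 0.94. Control 2, on which the first contrast rests, had the lowest signal from long transcripts (-0.75 log2 units), and sex and this difference cannot be told apart here.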

How the results depend on the processing

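The median of the 9 members stayed below 0 under all 15 alternatives, from -0.69 to -0.35, and no member passed under any of them (smallest adjusted p = 0.145, for Cdon). Ptch1 turned to 0.01 with length and GC trends removed, and Gli2 to 0.02 with Y-linked reads as a covariate and, over single left-out libraries, ran from -0.84 to 0.03, above 0 without heterozygous library 2; the other 7 members kept their sign. Over all genes DESeq2 called 75, the replicate block 11 and the main test 0; the cause was not tested. The number in the sample codes is shared by only 1 pair across genotypes, whose deviations correlated at 0.16. It was therefore not taken as a pairing. With this number as a block, the genotype term rests on that pair alone, heterozygous library 2 against control 1. The member median was then -0.57 and Shh stood at -0.01. Members below all controls numbered 2 (8.14% of all genes), but 1 with RLE scaling or DESeq2 size factors. They numbered 9 without the pair that lacks Y-linked reads (35.2% of all genes). When a single library was left out they numbered 2 to 7. There were 7 without control 2 (19.4% of all genes), 5 without heterozygous library 1 (23.4%) and 3 without heterozygous library 2 (18.6%). The shares of all genes were taken with the main scaling. The median of the other pathway genes turned to 0.03 with trends removed and ran from -0.22 to 0.02 over single left-out libraries. The Gli1 to Gli3 difference turned to 0.01 with a pseudocount of 1 CPM and ran from -0.12 to 0.18 over left-out libraries, and that of Ptch1 to Shh from -0.02 to 0.33. With 2 heterozygous libraries, differences of the size seen could not be separated from the spread between libraries. The part of depth was not tested.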
